A study of Mus musculus with 24 samples.

Results

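The 8 cerebellar tumours of hGFAP:GnasCKO mice were set against the 3 normal developing cerebella of the same series, across all genes. These 11 of the 24 samples are defined by their labels. In hGFAP:GnasCKO mice Gnas is conditionally deleted by Cre recombinase under the human GFAP promoter, so that deletion is limited to cells with a history of that promoter's activity and the other cells of a tumour keep the gene. The tumours came from mice of mixed C57BL/6 and 129 background, were collected at endpoint, and are recorded as biological replicates whose ages are not given in the labels used here. The developing cerebella were wild-type C57BL/6 at embryonic days 15 and 18 (E15 and E18) and at postnatal day 0 (P0), with 1 array per age, so that the spread of this group includes development itself. Strain, age and genotype differ together between the groups and cannot be told apart in them. The 8 tumours of Oligo1:GnasCKO mice, also of mixed C57BL/6 and 129 background, and 5 adult wild-type cerebella entered the model and are used here as reference levels. The adults were from postnatal days 60 (2 arrays), 95 and 122 and from 1 animal labelled only as adult, of C57BL/6 (days 95 and 122) or mixed background (the others).

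Gnas encodes Gsα, the G protein subunit that couples receptors to adenylyl cyclase, whose product cyclic AMP activates protein kinase A. In granule neuron precursors of the developing cerebellum, Sonic hedgehog (SHH) binds Patched and releases Smoothened, which lets GLI factors switch on target genes and keeps the cells dividing, while protein kinase A restrains GLI activity. Before birth and in the first days after it these precursors form the external granule layer, and Purkinje cells, interneurons, nuclear neurons and glia arise beside them.

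RNA was measured on single-colour gene arrays, and levels are log2 values after normalization across arrays, so that a difference of 1 is a 2-fold change. Of 20848 genes, 10963 were bright enough to be tested, and a difference was called at a Benjamini-Hochberg adjusted p under 0.05 in limma. Between 7890 genes (hGFAP tumour 5) and 9344 genes per array exceeded that brightness, and precision is limited by how few arrays there are. In all, 3107 genes (28.3%) were called, 1643 higher (15%) and 1464 lower (13.4%) in the tumours, and the median difference over all tested genes was 0.06. Without tumour 5, 4470 genes were called (40.8%), 2784 higher (25.4%) and 1686 lower (15.4%), with a median difference of 0.11 over all genes. Without the E15 array 1957 genes were called, 955 higher and 1002 lower. Because leaving out that tumour moves these counts, those of many gene lists are given with and without it. For the other lists only the counts with all tumours are given, which can differ without tumour 5. Low values on these arrays are compressed, so that folds of genes that were dim in 1 group are likely too small, and in bulk tissue fewer cells of a type and less RNA per cell cannot be told apart.

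The tumours were closest to the latest developing stage in 6 of 8 cases. Across the tested genes, which are not independent of each other, the Pearson correlation of single tumours with P0 was 0.762 to 0.853, with E15 0.683 to 0.773, and with the adult mean 0.590 to 0.938. Tumours 3 and 5 were nearest to adult cerebellum, at 0.856 and 0.938, and tumour 6 correlated equally, at 0.829, with P0 and with adult. The 3 developing arrays correlated with each other at 0.940 to 0.975, above every value of a tumour with a developing array. En2, a factor of the mid-hindbrain territory, stood at 9.97, 10.19 and 10.12 in the developing arrays and 9.67 to 10.60 in the tumours. It is 1 of 3 tested cerebellar territory genes, whose mean level was lower in every tumour. That mean was 9.29, 9.93 and 9.71 at E15, E18 and P0 and 7.67 to 8.77 in the tumours, so En2 alone does not check the tissue. Filtering changes these correlations, and without a filter on dim genes the mean over tumours was 0.950 with P0 and 0.927 with E15.

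**Figure D1:**
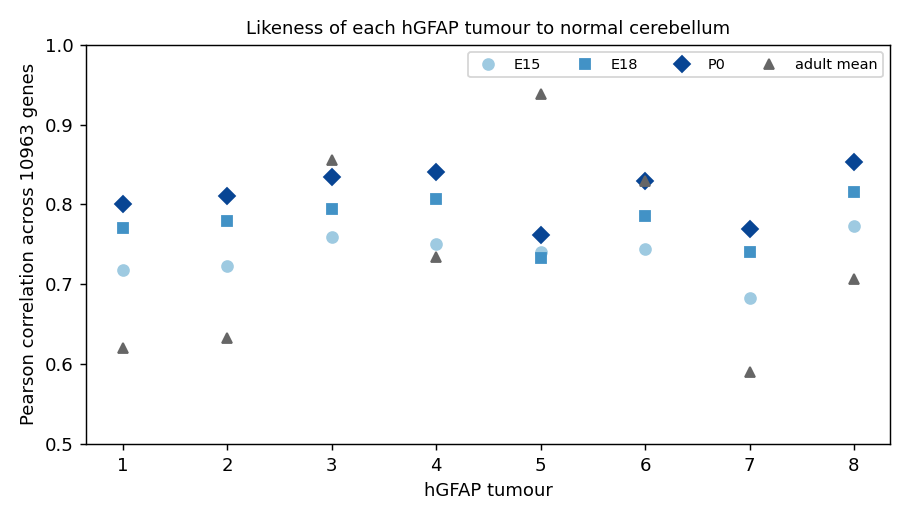
Pearson correlation across 10963 genes (vertical axis, starting at 0.5) of each hGFAP tumour (horizontal axis) with the E15, E18 and P0 arrays and with the mean of the 5 adult arrays. For every tumour except tumour 5, whose value for E15 (0.740) lay above that for E18 (0.733), the 3 developing values rise from E15 to P0, and the adult mean (triangles) is highest for tumours 3 and 5.

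Gnas itself was lower in the tumours. It stood at 9.98, 9.93 and 9.87 at E15, E18 and P0, and ran from 7.38 to 9.33 in the tumours with a median of 8.00. All 8 tumours lay below all 8 normal arrays, and the highest were tumours 5 (9.33) and 6 (9.16). The difference was -1.77 (SE 0.35, 3.41-fold lower, adjusted p = 0.000506), and it was -1.94 without tumour 5. With a strain term in the model it was -1.79 and no longer called (adjusted p = 0.0767), and likewise against P0 alone (-1.71, adjusted p = 0.0928). Of its 31 probe sets, 25 were bright in developing cerebellum, all 25 were lower on average in the tumours, and 21 had every tumour below every developing array, with a median difference of -1.96 and a range from -0.27 to -4.20.

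The genes of cyclic AMP signalling were mostly not called. Among 29 tested genes for Gs, cyclic AMP and protein kinase A, Gnas included, 1 was higher and 7 were lower, where 15% and 13.4% of all genes were, with a median of -0.14. Against P0 alone the median was -0.18. Prkar2b, a regulatory subunit of protein kinase A, read 10.35, 10.05 and 9.86 in the developing arrays and 7.01 to 9.07 (median 8.43) in the tumours, which did not overlap, a difference of -1.77 (SE 0.31, adjusted p = 0.000167). Gnal, the olfactory relative of Gnas, was lower (-1.74, adjusted p = 0.0337) over tumours spread between 7.19 and 10.11, and Adcyap1, which encodes the peptide PACAP that acts through Gs, was lower too (-1.28, adjusted p = 0.0304). The phosphodiesterase Pde10a (-1.24) and the kinase inhibitor Pkia (-0.65) were also lower, as was the regulatory subunit Prkar2a (-0.40). The 1 rise was Pkib, a protein kinase A inhibitor, by 1.03 (adjusted p = 0.0237). The catalytic subunits were not called, with differences of -0.15 for Prkaca and 0.13 for Prkacb, nor was the PACAP receptor gene Adcyap1r1 (-0.15). Among 8 tested CREB and immediate early targets, Jun rose by 0.62 (adjusted p = 0.0476), Nr4a3, an orphan nuclear receptor gene inducible by cyclic AMP, fell by 1.36 (adjusted p = 0.00185) to a level below all normal arrays, and 6 did not pass.

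The largest rise was that of Lcn2, an iron-binding acute phase protein made by reactive astrocytes. It stood at 4.19, 5.10 and 5.25 at the 3 ages and at 10.01 to 12.12 (median 11.67) in the tumours, a difference of 6.67 (SE 0.49, 102.1-fold, adjusted p = 1.28e-09). Every tumour lay above every normal array by a wide gap, and tumour 5 was the lowest of them. Gpnmb, a glycoprotein of phagocytes, rose by 5.89 (SE 0.50) and Serpina3n, an acute phase protease inhibitor, by 5.30 (SE 0.47), again with all tumours above all normal arrays. The macrophage gene Lyz2, encoding lysozyme, read 5.77, 6.70 and 7.23 in developing cerebellum and 7.59 in tumour 5, but 11.52 or more in the other tumours, a difference of 4.75 with all tumours and 5.28 without tumour 5. Spp1, encoding osteopontin (4.50), the complement gene C4b (4.46) and Wfdc17, listed as Gm11428 in the array annotation and found in activated macrophages (4.35), showed the same order, with tumour 5 lowest and still above the developing arrays. Each of these 7 differences had an adjusted p of 7.38e-06 or lower. Tumour and developing arrays did not overlap for 9.92% of all genes on the higher side and 11.4% on the lower, and 8.88% and 10.1% were also called. Called differences of at least 2-fold were found for 4.87% of genes upward and 5.76% downward.

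**Figure D2:**
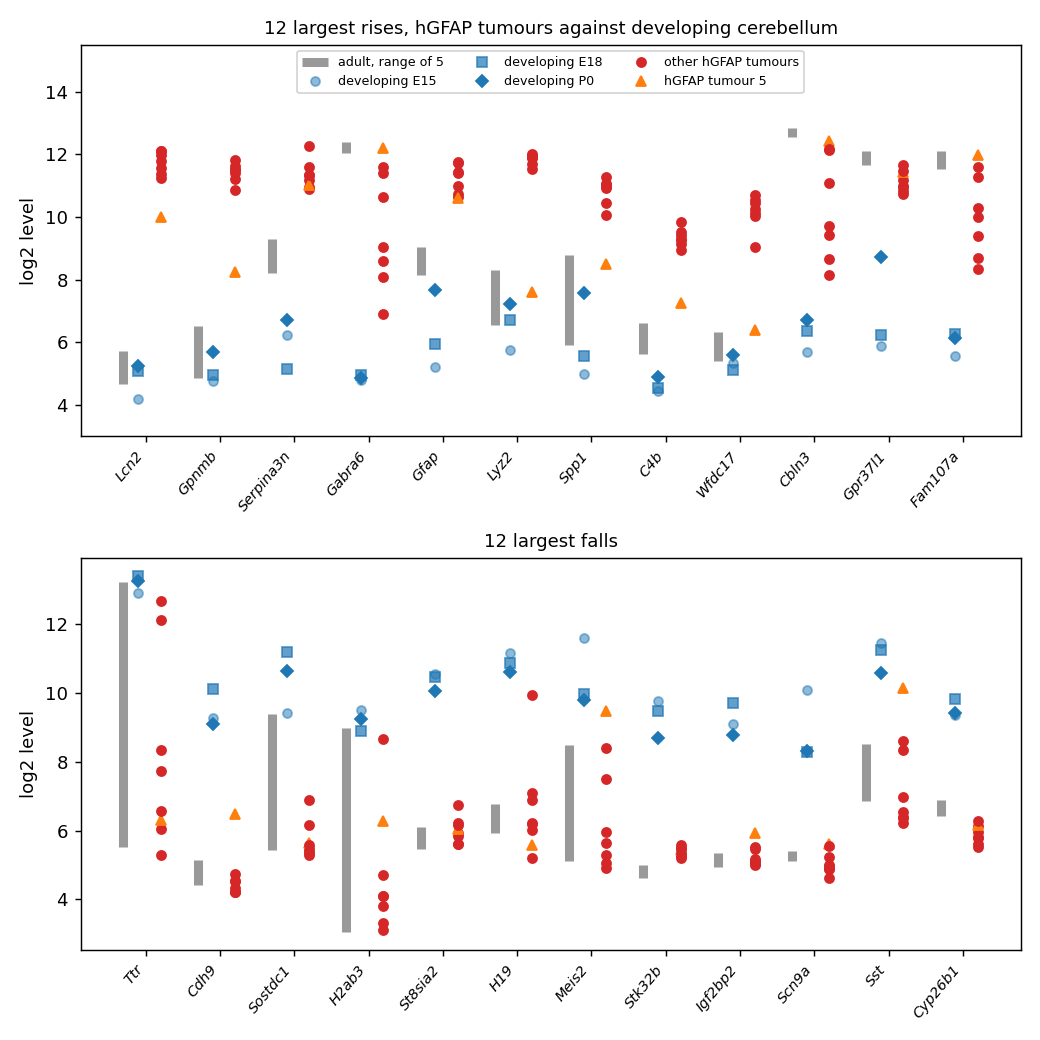
Log2 levels (vertical axis) of the 12 genes with the largest rises (top) and falls (bottom) among called genes whose tumour and developing arrays did not overlap. Blue symbols are the 3 developing arrays, red points and the orange triangle the 8 tumours, and grey bars the range of the 5 adult arrays. Tumour 5 is the lowest tumour for Lcn2, Gpnmb, Lyz2, Spp1, C4b and Wfdc17.

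The other 5 of the 12 largest rises included 3 genes whose levels were spread widely. Gabra6, a GABA receptor subunit that marks differentiated granule neurons, was at 4.80, 4.95 and 4.86 in the developing arrays and spread from 6.91 to 12.21 (median 9.84) over the tumours, a difference of 4.94 (SE 1.09, adjusted p = 0.00146). Cbln3, a granule neuron secreted protein, rose by 4.21 (SE 1.05, adjusted p = 0.00388) and Fam107a by 4.20 (SE 0.90, adjusted p = 0.00107). For these 3 genes the highest tumour was near the adult level, and their calls ended against P0 alone (adjusted p = 0.126, 0.263 and 0.126) and with strain as a covariate (0.137, 0.198 and 0.114). Gfap, the intermediate filament of astrocytes, read 5.22, 5.96 and 7.68 with rising age and 10.60 to 11.77 in the tumours, above the adult range of 8.14 to 9.03, a difference of 4.87 (SE 0.42, adjusted p = 1.19e-08). Gpr37l1, a receptor of astrocytes and Bergmann glia, rose by 4.20 (SE 0.41, adjusted p = 7.18e-08), in tumours that were tightly grouped between 10.74 and 11.65.

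Reactive glia and acute phase genes were higher as a list. Of 18 tested, 13 rose and none fell, with a median difference of 1.62, and 16 rose without tumour 5. Beside Lcn2, Serpina3n, Gfap and C4b, the list's rises included C3, the central complement component, at 6.04, 5.80 and 5.98 in developing cerebellum and 5.95 to 10.55 (median 8.96) in tumours, up by 2.98 (SE 0.72, adjusted p = 0.00332). Its lowest value lay within the developing range. Cp, encoding the copper carrier ceruloplasmin, rose by 2.48 (SE 0.30, adjusted p = 1.51e-06) and Osmr, the oncostatin M receptor, by 1.19 (SE 0.31, adjusted p = 0.00531), both to levels above all normal arrays. The filament gene Vim (-0.29) and the adhesion receptor gene Cd44 (0.79, adjusted p = 0.0569) did not pass.

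Microglia and macrophage markers were higher almost throughout. Of 17 tested, 16 rose and none fell, with a median of 2.34 against 0.06 over all genes, and Mrc1, a marker of border macrophages, was not called (0.12, adjusted p = 0.822). The mean log2 level of the 17 genes was 6.49, 6.70 and 7.14 at E15, E18 and P0, 7.22 in tumour 5, and 9.39 to 9.64 in the other 7 tumours. C1qb, a subunit of the complement protein C1q made by microglia, stood at 8.10, 8.78 and 9.004 in the developing arrays and 9.62 to 11.58 (median 11.40) in tumours, a difference of 2.57 (SE 0.34, adjusted p = 5.88e-06). Csf1r, the receptor that microglia need to survive, rose by 1.84 (SE 0.29, adjusted p = 4.79e-05), Trem2, a lipid sensor of phagocytes, by 1.99 (SE 0.37, adjusted p = 0.000242), and P2ry12, a receptor typical of resting microglia, by 1.34 (SE 0.33, adjusted p = 0.00373). Against P0 alone 9 of the 17 were called higher, where 1.75% of all genes were. How far the amount of these cells sets other rises was not tested.

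Genes of antigen presentation and of the interferon response rose in part. Of 8 tested antigen presentation genes 5 were higher and none lower (6 higher without tumour 5), with a median of 1.67. Cd74, the chaperone of MHC class II, read 4.89, 4.37 and 5.07 in developing cerebellum and 5.71 to 9.80 (median 8.31) in tumours, up by 3.45 (SE 0.65, adjusted p = 0.000341), and B2m, the light chain of MHC class I, rose by 1.24 (SE 0.22, adjusted p = 0.000172) to levels above all normal arrays. Of 12 interferon response genes 4 rose with all tumours and 8 without tumour 5, none fell, and the median was 1.30, where 15% and 25.4% of all genes were called higher. None of the 12 was called against P0 alone or with strain as a covariate. Ifit3, an interferon-induced antiviral gene, rose by 2.57 (SE 0.63) from 5.61, 6.13 and 6.07 to a spread of 5.81 to 10.07, which overlapped the developing arrays. In the lymphocyte list 1 gene was bright enough to test, Ptprc (CD45), which is carried by microglia and macrophages as well as lymphocytes and rose by 1.65 (SE 0.32, adjusted p = 0.000469), while no gene of the erythroid list passed the filter on dim genes.

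**Figure D3:**
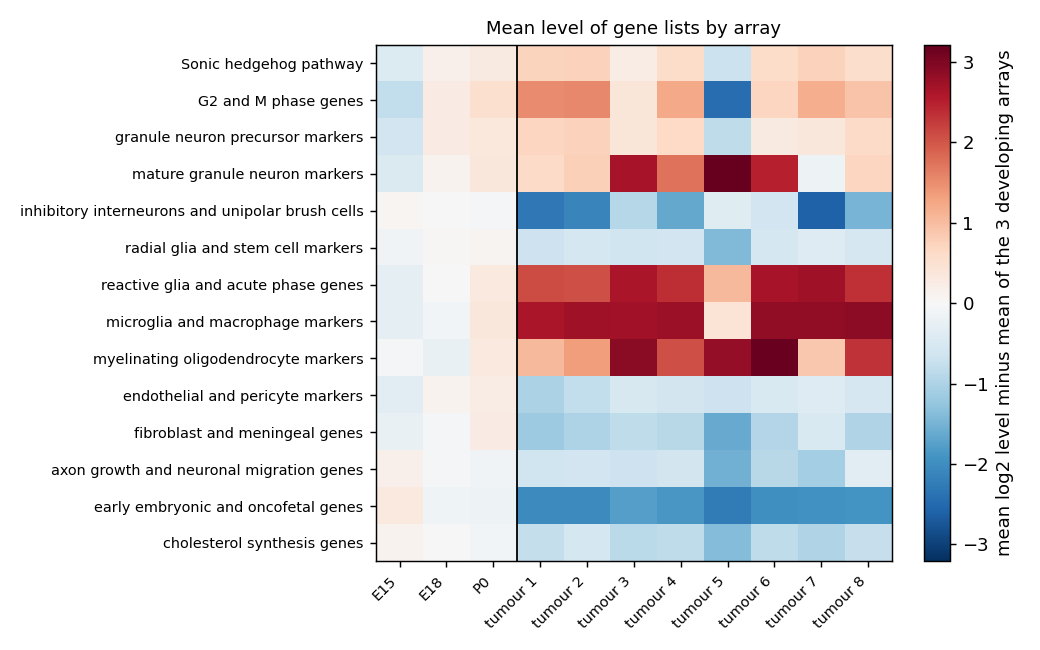
Mean log2 level of the tested genes of 14 lists in each array, as the difference from the mean of the 3 developing arrays (colour scale, red higher and blue lower). The columns are the 3 developing arrays and the 8 tumours, and tumour 5 is low for G2 and M phase genes and close to developing cerebellum for microglia markers.

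Most genes of myelin were higher. Of 12 tested myelinating oligodendrocyte markers 10 rose and none fell, with a median of 2.18, the same counts as without tumour 5. Mbp, a major myelin protein, read 8.08, 7.68 and 8.55 in the developing arrays and 8.75 to 11.05 (median 10.45) in tumours, a difference of 2.12 (SE 0.47, adjusted p = 0.00159). No tumour overlapped the developing arrays, though the lowest lay just above P0, and the highest exceeded the adult mean of 10.79. Mobp rose by 3.35 (SE 0.87) and Mog, an outer myelin protein, by 2.59 (SE 0.58), while Cldn11 of the myelin tight junction did not pass (0.38, adjusted p = 0.543). Against P0 alone, a single array, the median of these 12 was 1.81. Among 12 precursor markers 4 were higher and none lower with all tumours, and 8 were higher without tumour 5. Bcas1, which marks newly forming oligodendrocytes, rose by 2.41 (SE 0.27, adjusted p = 4.5e-07) and the lineage factor Sox10 by 1.15 (SE 0.34, adjusted p = 0.0135), and Pdgfra, the growth factor receptor of precursors, gave 1.11 (adjusted p = 0.0652) with all tumours and 1.45 (adjusted p = 0.00021) without tumour 5.

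Astrocyte and Bergmann glia markers rose in 7 of 17 cases and fell in 1, with a median of 0.92. S100b, a calcium-binding protein of glia, stood at 5.91, 5.65 and 7.01 in developing cerebellum and 9.02 to 10.14 in tumours, a difference of 3.36 (SE 0.31, adjusted p = 3.1e-08), and the water channel gene Aqp4 rose by 1.45 (SE 0.36, adjusted p = 0.00387). Slc1a2, the main glial glutamate transporter, rose by 1.37 (SE 0.14, adjusted p = 1.71e-07). The fall was Aldh1l1, a folate enzyme often used to mark astrocytes, from 9.05, 9.86 and 10.35 to 7.90 to 9.09 (-1.25, SE 0.34, adjusted p = 0.00819), and Gja1 (-0.12) and Gdf10 (-0.11), genes of astrocyte gap junctions and of Bergmann glia, were not called.

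The SHH pathway was higher in part, and genes that restrain it were among both the rises and the falls. Of 16 tested genes 6 rose and 2 fell, with a median of 0.64, where 15% and 13.4% of all genes were called. Without tumour 5 there were 12 rises and 3 falls, where 25.4% and 15.4% of all genes were called. The share of falls was close to that of all genes in both cases. The fall added without tumour 5 was Cdon (-1.45, adjusted p = 0.0131). Ptch1, the SHH receptor and itself a target of the pathway, read 10.27, 10.48 and 10.64 with rising age and 11.58 to 11.995 (median 11.83) in the tumours, above the adult range of 10.85 to 11.06. Its difference of 1.35 (SE 0.10, 2.54-fold, adjusted p = 2.83e-09) was 1.36 without tumour 5. Gli1, the activator that is also a target, stood at 6.71, 7.63 and 7.94 in developing cerebellum and 7.53 to 9.55 (median 8.88) in tumours, a rise of 1.33 (SE 0.31, adjusted p = 0.00216) in which only tumour 5, the lowest at 7.53, lay inside the developing range. Hhip, a decoy receptor induced by the pathway, rose by 1.24 (SE 0.36, adjusted p = 0.011).

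Several targets showed the same tumour 5 at the bottom. Sfrp1, a WNT antagonist that is also a marker of human SHH medulloblastoma, was at 9.56, 9.19 and 9.80 in the developing arrays, 8.55 in tumour 5 and 11.63 or more in the others, a difference of 2.11 (SE 0.57, adjusted p = 0.00716) with all tumours and 2.55 (adjusted p = 4.07e-06) without that one. For Ccnd1, the G1 cyclin induced by SHH, the values were 1.18 (adjusted p = 0.0498) and 1.53 (adjusted p = 5.18e-05), and for Mycn 0.74 (adjusted p = 0.258) and 1.11 (adjusted p = 0.0023). Gli3, the main repressor form of the family, was the larger of the falls, from 8.41, 8.79 and 9.02 to 5.93 to 7.62 (median 6.62), with no overlap and a difference of -2.09 (SE 0.45, adjusted p = 0.00127). Gpr161, a ciliary receptor that raises cyclic AMP and restrains the pathway, fell by 1.22 (SE 0.20, adjusted p = 8.71e-05). Smo, encoding Smoothened, was not called with all tumours (0.19) or without tumour 5 (0.37, adjusted p = 0.124). Against P0 alone, with tumour 5 kept, the median difference of the 16 genes was 0.36. Their mean level was 9.22 at P0, 8.24 in tumour 5 and 9.18 to 9.68 in the other tumours.

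**Figure D4:**
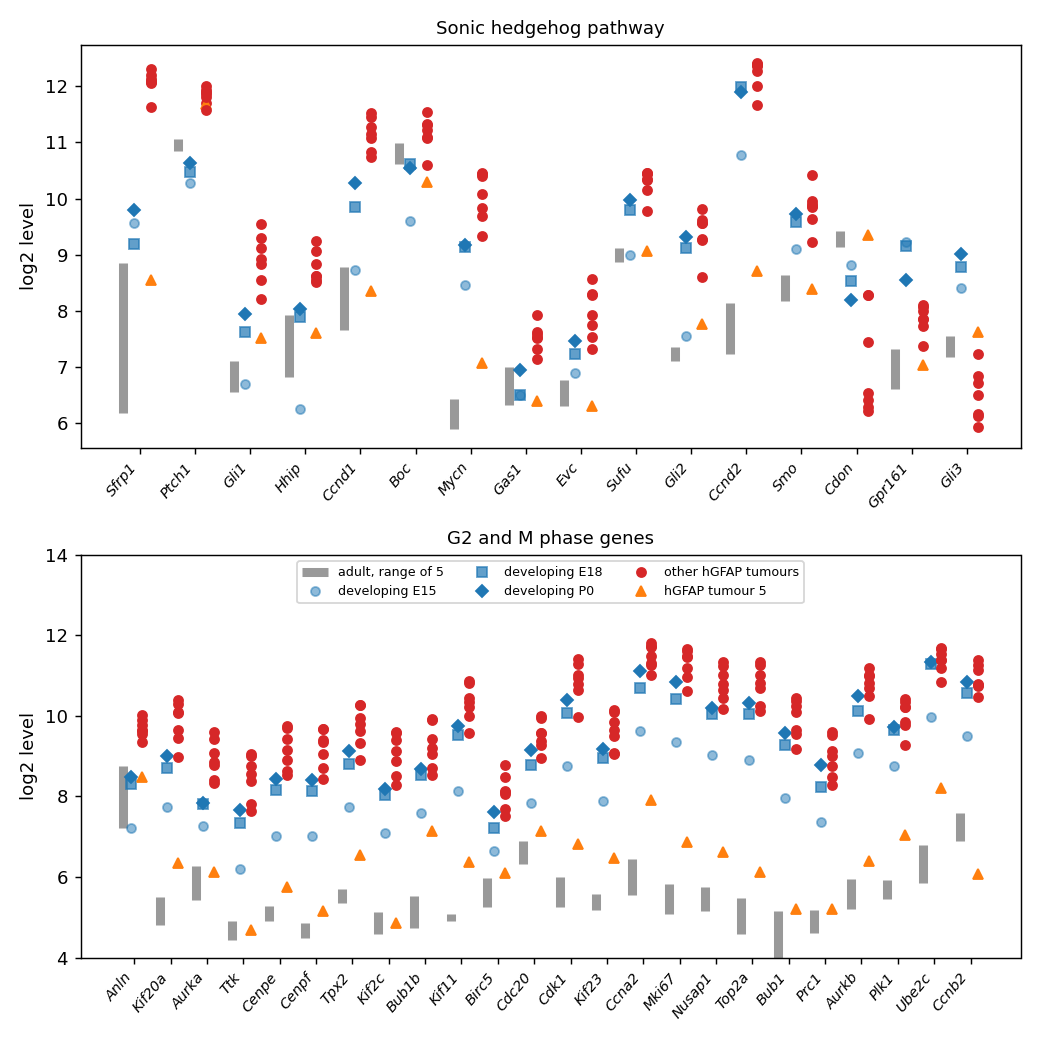
Log2 levels (vertical axis) of the 16 tested SHH pathway genes (top) and the 24 tested G2 and M phase genes (bottom), ordered by difference. Blue symbols are the developing arrays, which rise from E15 to P0 for most of these genes, grey bars the adult range, and the orange triangle tumour 5, which lies below the other tumours for all 24 G2 and M phase genes.

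Genes of cell division were mostly not called with all tumours, and were higher without tumour 5. Of 24 tested G2 and M phase genes 1 rose with all 8 tumours and 23 rose without tumour 5, and none fell in either case, with medians of 0.64 and 1.04. Their mean level was 8.07, 9.11 and 9.38 at E15, E18 and P0, 6.40 in tumour 5, and 9.25 to 10.41 in the other tumours. Mki67, the proliferation antigen Ki-67, stood at 9.35, 10.41 and 10.85 in developing cerebellum, 6.87 in tumour 5 and 10.63 to 11.66 in the others, a difference of 0.53 (adjusted p = 0.579) with all tumours and 1.08 (adjusted p = 0.00157) without that one. The exception with all tumours was Anln, a scaffold of the cleavage furrow that is also made in myelinating oligodendrocytes, which rose by 1.55 (SE 0.30, adjusted p = 0.000505). Of 23 tested S phase genes 2 rose with all tumours, Ccne2 (1.15, adjusted p = 0.00868) and Pcna (1.09, adjusted p = 0.0366), and 19 without tumour 5. Mcm2 of the replicative helicase went from 0.98 (adjusted p = 0.166) to 1.42 (adjusted p = 2.43e-05). DNA repair genes behaved alike, with 1 rise and 1 fall of 15 with all tumours and 13 rises without tumour 5.

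Against P0 alone, with tumour 5 kept, the medians of the S phase and G2 and M phase lists were 0.28 and 0.08. The mean level of the S phase genes was 8.66 at P0, 6.75 in tumour 5 and 8.55 to 9.69 in the other tumours. For the G2 and M phase genes these levels were 9.38, 6.40 and 9.25 to 10.41. A comparison with P0 that leaves out tumour 5 was not run. The promoters of these lists were then searched for 5 motifs, and 6 promoters are printed as examples of genes that were higher without tumour 5. In RefSeq windows of 300 bases (250 before to 50 after the start, GRCm38.p6), TTTGAA on either strand, the core of the cell cycle homology region bound by the complex that represses mitotic genes in resting cells, was found in 17 of 21 promoters of G2 and M phase genes (81%, 20 of 24 genes matched) and in 17.9% of all 32851 promoters. TTTNNCGC on either strand, a core of E2F sites, was found in 10 of 21 promoters of S phase genes (47.6%, 19 of 23 genes matched) and 5.17% of all. Both shares describe the lists as written and, apart from the filter on dim genes, do not depend on the levels measured here. The bases from 100 before to 50 after the start are shown for the members with a match there and the largest differences, read 5′ to 3′ on the gene's strand, with the matches in capitals.
Anln: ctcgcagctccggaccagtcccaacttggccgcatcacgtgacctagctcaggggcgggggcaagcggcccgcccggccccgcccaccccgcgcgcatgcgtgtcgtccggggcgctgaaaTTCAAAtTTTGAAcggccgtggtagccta
Aurka: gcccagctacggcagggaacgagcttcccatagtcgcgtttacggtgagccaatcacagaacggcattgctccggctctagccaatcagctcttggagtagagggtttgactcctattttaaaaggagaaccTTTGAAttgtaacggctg
Ttk: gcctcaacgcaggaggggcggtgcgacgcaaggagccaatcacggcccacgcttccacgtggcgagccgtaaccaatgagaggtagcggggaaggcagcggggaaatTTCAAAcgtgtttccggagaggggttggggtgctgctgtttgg
Cenpf: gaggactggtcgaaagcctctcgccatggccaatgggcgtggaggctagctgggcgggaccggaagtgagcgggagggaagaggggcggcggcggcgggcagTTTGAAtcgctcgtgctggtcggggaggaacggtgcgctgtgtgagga
Mcm7: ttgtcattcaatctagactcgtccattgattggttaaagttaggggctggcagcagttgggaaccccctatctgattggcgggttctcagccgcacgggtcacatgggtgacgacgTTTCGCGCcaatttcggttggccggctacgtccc
Mcm3: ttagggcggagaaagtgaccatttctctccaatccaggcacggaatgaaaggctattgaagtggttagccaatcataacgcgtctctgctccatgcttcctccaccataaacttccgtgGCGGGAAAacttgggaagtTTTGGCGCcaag
These windows are Anln at chr9:22389157-22389306 on the minus strand, Aurka at chr2:172370521-172370670 on the minus strand, Ttk at chr9:83834589-83834738 on the plus strand, Cenpf at chr1:189688037-189688186 on the minus strand, Mcm7 at chr5:138171834-138171983 on the minus strand and Mcm3 at chr1:20820263-20820412 on the minus strand. The first 4 are G2 and M phase genes with TTTGAA or its reverse complement TTCAAA in capitals, whose first match begins 3 to 33 bases after the start. Aurka and Ttk encode mitotic kinases and Cenpf a kinetochore protein. The last 2, Mcm7 and Mcm3, encode helicase subunits and carry TTTNNCGC on either strand. Their differences with all tumours were 1.55, 0.93, 0.92, 0.83, 0.84 and 0.82 in this order, of which the first was called and the others were not (adjusted p = 0.0978 to 0.327). Without tumour 5 all 6 were called, at 1.70, 1.28, 1.39, 1.33, 1.15 and 1.19. Among the other 3 motifs searched, GACCACCCA of GLI factors was in none of 12 SHH pathway promoters (0.253% of all), TGACGTCA of CREB in 1 of 7 of its list (14.3%, 1.79% of all) and TTCNNNGAA of STAT factors in 2 of 18 of reactive glia (11.1%, 8.3% of all).

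Cell cycle inhibitors and targets of p53 were higher in part. Of 14 tested 7 rose, 1 fell and 6 did not pass, the same counts as without tumour 5, with a median of 0.54. Against P0 alone none was called higher and 1 lower, and with strain 1 was called in each direction. Cdkn2c, encoding the inhibitor p18, read 5.28, 6.81 and 7.43 in developing cerebellum and 5.84 to 9.13 (median 8.69) in tumours, a rise of 1.76 (SE 0.49, adjusted p = 0.00862), and Cdkn1b, encoding p27, rose by 0.89 (SE 0.21, adjusted p = 0.00218). Eda2r, a p53-induced receptor, rose by 2.06 (SE 0.43, adjusted p = 0.000819). Cdkn2a, encoding p16 and p19ARF, rose 2.2-fold (adjusted p = 0.0317) but stayed dim, at 5.67 to 6.23. The fall was Cdkn1c, the imprinted inhibitor p57 of cells leaving the cycle in the embryo, from 9.61, 8.67 and 9.07 to 6.43 to 6.96 (-2.49, SE 0.22, adjusted p = 1.24e-08), and Cdkn1a, encoding p21, was not called (10.49 as the tumour median against 10.20, 10.70 and 10.82, adjusted p = 0.994). Of 18 MYC and ribosome biogenesis genes 4 rose with all tumours, where 15% of all genes did, and 10 without tumour 5, where 25.4% did. Fbl, a nucleolar methyltransferase, rose by 0.83 (SE 0.21, adjusted p = 0.00463) with all tumours, while Myc itself was not called (-0.09, adjusted p = 0.908).

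Granule neuron precursor genes were mostly not called with all tumours. Of 17 tested 2 rose, a share below the 15% of all genes, and 1 fell, while 8 rose and 1 fell without tumour 5 (25.4% and 15.4% of all genes), with medians of 0.34 and 0.47 and of 0.027 against P0 alone. Atoh1, the factor that defines these precursors, stood at 8.85, 9.60 and 9.56 in developing cerebellum, 6.62 in tumour 5 and 10.59 to 12.19 in the others, a difference of 1.48 (SE 0.71, adjusted p = 0.125) with all tumours and 2.08 (adjusted p = 2.93e-05) without that one. Barhl2, a homeobox factor of the rhombic lip, rose by 1.46 (SE 0.16, adjusted p = 4.37e-07), with no overlap, and by 1.48 without tumour 5. Nhlh1, active as precursors leave the cycle, rose by 1.51 (SE 0.57, adjusted p = 0.0491), the lineage factors Pax6 (-0.09) and Zic2 (0.30) were not called, and Lmx1a of the rhombic lip and unipolar brush cells fell by 2.146 (SE 0.21, adjusted p = 1.1e-07). Of 14 tested mature granule markers 5 rose and none fell, with a median of 1.41, and none of the 14 was called against P0 alone or with strain as a covariate. Etv1, a factor of granule neuron maturation, read 7.87, 8.47 and 9.25 in developing cerebellum and 9.22 to 11.74 in tumours (1.87, SE 0.41, adjusted p = 0.00131), and Slc17a7, the vesicular glutamate transporter, did not pass (2.10, adjusted p = 0.0517). The mean level of these 14 genes was 7.49 to 8.31 in developing arrays and 7.79 to 11.17 in tumours, highest in tumour 5 and lowest in tumour 7.

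Among the 12 largest falls was St8sia2, the enzyme that adds polysialic acid to the adhesion molecule NCAM in immature neurons. It read 10.57, 10.47 and 10.05 in developing cerebellum and 5.62 to 6.75 (median 5.99) in tumours, a difference of -4.34 (SE 0.21, 20.2-fold lower, adjusted p = 6.32e-13). The tumours were close to the adult range of 5.45 to 6.09 and far from the developing arrays. Cdh9, a neuronal cadherin, fell by 4.84 (SE 0.38), as did the kinase gene Stk32b (-3.93, SE 0.19) and the sodium channel gene Scn9a (-3.80, SE 0.27), each with an adjusted p of 3.29e-09 or lower. Cyp26b1, which degrades retinoic acid, fell by 3.63 (SE 0.16, adjusted p = 5.13e-13) to levels below all normal arrays. The neuropeptide gene Sst, encoding somatostatin, read 11.46, 11.26 and 10.58 at the 3 ages, 10.16 in tumour 5 and at most 8.61 in the others, a difference of -3.64 (SE 0.62, adjusted p = 0.00012), and its call ended against P0 alone (-3.12, adjusted p = 0.0828). H2ab3, a histone variant gene on the X chromosome measured by 1 probe set, spread from 3.11 to 8.67 in tumours and more widely still in adult arrays (3.048 to 9), and its fall of 4.46 (SE 1.25, adjusted p = 0.00939) was not called against P0 alone (0.263), with strain (0.134) or in tumours 5 to 8 (0.0913).

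Genes of cerebellar interneurons and unipolar brush cells were lower in part. Of 14 tested 7 fell and none rose (9 fell without tumour 5), with a median of -1.13. Tfap2a, a factor of early inhibitory interneurons, stood at 9.94, 10.57 and 9.89 in developing cerebellum and 5.71 to 7.31 (median 6.63) in tumours, below the adult arrays too, a difference of -3.59 (SE 0.37, adjusted p = 1.71e-07). Its relative Tfap2b fell by 3.07 (SE 0.55, adjusted p = 0.000191), a call that ended with strain (0.0531) and against P0 alone (0.0548). Eomes, a marker of unipolar brush cells, read 7.43, 9.94 and 9.64 at the 3 ages and 4.90 to 6.23 in tumours, below every normal array (-3.31, SE 0.50, adjusted p = 3.18e-05). Pax2, of immature interneurons, fell by 2.75 (SE 0.23, adjusted p = 9.4e-09). Gad1, the enzyme that makes GABA, did not pass, at 10.22, 10.25 and 10.25 in developing arrays and 7.74 to 11.17 in tumours (-1.06, adjusted p = 0.36). Of 4 tested ventricular zone genes 2 fell, Pax3 (-2.87, SE 0.35, adjusted p = 1.84e-06) and the E-cadherin gene Cdh1 (-1.09, SE 0.26, adjusted p = 0.00249).

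Nuclear and Purkinje cell genes were mixed. Of 6 tested genes of cerebellar nuclei and other glutamatergic neurons, Lhx9 (-3.43, SE 0.58, adjusted p = 0.000103) and Meis2 (-3.93, SE 0.86, adjusted p = 0.00136) fell, both with tumour 5 as the highest tumour (8.52 and 9.49), and the call of Meis2 ended against P0 alone (-3.27, adjusted p = 0.212) and with strain (-4.61, adjusted p = 0.0619). Olig3, a factor of rhombic lip progenitors, went the other way, from 6.02, 4.87 and 4.69 in the developing arrays to 4.79 in tumour 5 and 8.76 or more in the others, a rise of 3.74 (SE 1.02, adjusted p = 0.00774). Of 16 Purkinje cell genes 3 rose, Ppp1r17 (3.19, adjusted p = 0.022), the calcium buffer Pvalb (3.01, adjusted p = 0.00585) and Homer3 (0.76, adjusted p = 0.0229), and 3 fell, Skor2, Foxp2 and Foxp4. These shares were not far above the 15% and 13.4% of all genes. With strain as a covariate none of the 16 was called higher and 2 lower. The median difference of the list was -0.03, and -0.30 against P0 alone. Skor2, a corepressor of Purkinje cell differentiation, read 8.21, 9.27 and 8.65 in developing cerebellum and 5.23 to 7.18 in tumours, below all normal arrays (-2.74, SE 0.35, adjusted p = 3.99e-06). Calb1, the most used Purkinje marker, was not called (-0.13, adjusted p = 0.946), over tumours spread from 7.86 to 12.10.

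Radial glia and Notch genes were lower in part. Of 16 tested radial glia and stem cell genes 5 fell and none rose, with a median of -0.44. Tnc, a matrix protein of radial glia, stood at 10.85, 10.99 and 11.07 in developing cerebellum and 6.55 to 8.12 (median 7.58) in tumours, with no overlap and a difference of -3.42 (SE 0.29, adjusted p = 9.88e-09). Nes, encoding nestin, fell by 1.57 (SE 0.44, adjusted p = 0.00982), while Sox2 (-0.63, adjusted p = 0.085), Sox9 (-0.25, adjusted p = 0.413) and Vim did not pass. Of 14 Notch genes 6 fell and 1 rose. The falls included the receptors Notch1 (-1.38, SE 0.19) and Notch3 (-1.42, SE 0.14), the ligand Jag2 (-1.88, SE 0.21) and the target Hes5 (-1.31, SE 0.15), with adjusted p of 1.15e-05 or lower, and for these 4 genes no tumour reached a developing array. Hey1, another target, rose by 1.06 (SE 0.30, adjusted p = 0.0106).

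Genes of axon growth and migration were lower in part. Of 25 tested 14 fell, 1 rose and 10 did not pass (18 fell without tumour 5), with a median of -0.79. Dpysl3, a collapsin response mediator of growth cones, read 12.29, 12.16 and 11.98 in developing cerebellum and 8.19 to 11.03 (median 10.54) in tumours, a difference of -1.93 (SE 0.37, adjusted p = 0.000376). Gap43, of growing axons, fell by 1.10 (SE 0.19, adjusted p = 0.000119), as did the netrin receptor gene Unc5c (-1.79, SE 0.44, adjusted p = 0.00341) and the microtubule-binding kinase gene Dclk1 (-1.29, SE 0.20, adjusted p = 3.88e-05), the latter pair to levels below all normal arrays. The rise was Cntn2, an adhesion molecule of postmitotic granule neurons, by 1.12 (SE 0.40, adjusted p = 0.0377). Dcx, of migrating neurons, passed only without tumour 5 (-0.67, adjusted p = 0.00395). Against P0 alone 1 of the 25 was called lower, with a median of -0.64.

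Of 28 glutamate and GABA receptor genes 5 rose, a share close to the 15% of all genes, and 7 fell, where 13.4% of all genes did. Against P0 alone none was called higher and 3 lower. The rises beside Gabra6 included the subunits Gabrd (2.25, SE 0.69, adjusted p = 0.0166) and Grin2c (1.79, SE 0.62, adjusted p = 0.0332), both typical of adult granule neurons. The falls included Gabra5 (-3.04, SE 0.66, adjusted p = 0.00127), Grik1 (-2.41, SE 0.25, adjusted p = 2.1e-07) and Grin2d (-1.96, SE 0.21, adjusted p = 2.78e-07), the last a subunit of immature NMDA receptors at 8.97, 8.36 and 8.48 in developing cerebellum and 6.21 to 7.34 in tumours. Among 19 synapse genes 2 rose, a share below that of all genes, and 5 fell. They were led by the vesicle protein gene Sv2b (1.56, adjusted p = 2.36e-05) and by the syntaxin gene Stx1a (-1.69, adjusted p = 3.2e-07). With strain as a covariate none of the 19 was called higher and 1 lower. Of 16 voltage-gated channel genes 2 rose and 2 fell, both shares below those of all genes, and none was called with strain. They included the potassium channel Kcna1 (1.96, adjusted p = 0.0216) and the embryonic sodium channel Scn3a (-1.73, adjusted p = 0.000511).

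Early embryonic and oncofetal genes were mostly lower. Of 14 tested 10 fell and none rose, with a median of -1.88, and the counts were the same without tumour 5. Igf2bp2, an RNA-binding protein of fetal tissue, stood at 9.10, 9.70 and 8.78 at the 3 ages and at 5.01 to 5.94 (median 5.15) in tumours, a difference of -3.90 (SE 0.18, 14.9-fold lower, adjusted p = 5.55e-13). The gap between the groups was wider than the range of either. Igf2bp3 fell by 2.93 (SE 0.17, adjusted p = 1.92e-11), as did the imprinted genes Dlk1 (-3.29, SE 0.40) and Plagl1 (-2.98, SE 0.35). H19, an imprinted RNA, read 11.18, 10.86 and 10.60 in developing cerebellum, 9.95 in tumour 7 and at most 7.10 in the other tumours (-4.24, SE 0.69, adjusted p = 7.39e-05), and its call was lost with a strain term (-3.87, adjusted p = 0.0523). Sox4 (-0.75, adjusted p = 0.275) and Sox11 (-0.65, adjusted p = 0.3), factors of immature neurons, did not pass, and against P0 alone the median of the 14 was -1.92.

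In the insulin-like growth factor system 7 of 15 fell and 2 rose, and some of the falls are in the oncofetal list too. Igf2 fell by 1.66 (SE 0.47, adjusted p = 0.00972), as did the binding proteins Igfbp2 (-1.85, SE 0.43) and Igfbp4 (-1.30, SE 0.22) and the receptor Igf1r (-0.42, SE 0.10, adjusted p = 0.0027). The adaptor genes Irs1 (0.85, adjusted p = 0.0339) and Irs2 (0.50, adjusted p = 0.033) rose.

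Genes of vessels and of fibroblasts were lower in part. Of 16 endothelial and pericyte genes 8 fell and 2 rose, with a median of -0.63. Kdr, the VEGF receptor of growing vessels, read 8.55, 8.94 and 8.97 in developing cerebellum and 5.70 to 6.89 (median 6.57) in tumours (-2.34, SE 0.25, adjusted p = 3.2e-07), near the adult mean of 6.64. Cdh5, the endothelial cadherin, fell by 1.86 (SE 0.19, adjusted p = 2.18e-07), as did Pdgfrb of pericytes (-1.32, SE 0.20, adjusted p = 3.13e-05), whereas the blood-brain barrier transporters Slco1a4 (1.13, adjusted p = 0.00983) and Abcb1a (0.65, adjusted p = 0.0382) rose. Of 13 fibroblast and meningeal genes 8 fell and none rose, among them the matrix gene Postn (-2.55, SE 0.26, adjusted p = 1.13e-07) and the collagen genes Col1a2 (-1.64) and Col3a1 (-1.15).

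For choroid plexus genes the level depended on the array. Ttr, encoding transthyretin and the largest of these falls, read 12.92, 13.41 and 13.25 in developing cerebellum, 12.12 and 12.67 in tumours 2 and 4, and 5.29 to 8.36 in the other 6 tumours, while adult arrays ran from 5.52 to 13.23. Its difference was -5.05 (SE 1.82, adjusted p = 0.0406), and the call ended in 11 alternatives that left out an array, restricted the samples or added strain, with adjusted p from 0.0509 to 0.566. Sostdc1, also high in choroid plexus, fell by 4.70 (SE 0.80, adjusted p = 0.000109) with adult arrays between 5.45 and 9.39 (0.0544 with strain). Of the 5 tested choroid plexus and ependymal genes 2 fell, Ttr and Spag6, the latter a gene of motile cilia (-2.67, SE 0.27, adjusted p = 1.29e-07). How much choroid plexus each sample carried was not tested.

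Cholesterol synthesis genes were lower almost throughout. Of 13 tested 11 fell and none rose, with a median of -0.92, with the same counts without tumour 5, and 10 fell with strain as a covariate, where 4.68% of all genes did. Against P0 alone 4 of the 13 were called lower, where 3.54% of all genes were. Hmgcs1, an early enzyme of the pathway, stood at 11.03, 10.59 and 10.54 in developing cerebellum and 8.90 to 9.43 (median 9.18) in tumours, a difference of -1.54 (SE 0.18, adjusted p = 8.57e-07). The tumours did not reach the developing arrays and lay around the adult mean of 9.30. Srebf2, the factor that controls these genes, fell by 0.86 (SE 0.13, adjusted p = 2.53e-05), as did Dhcr7, of the last step (-0.97, SE 0.11, adjusted p = 1.03e-06). Insig1 (-0.31, adjusted p = 0.42) and Mvd (0.01, adjusted p = 0.983) were not called.

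Among metabolic genes Hk2 stood alone. This hexokinase, which is induced in dividing granule precursors, read 5.30, 5.27 and 5.53 in developing cerebellum, 5.64 in tumour 5 and 7.99 to 9.20 in the others, a rise of 2.94 (SE 0.46, adjusted p = 4.42e-05) with all tumours and 3.32 without that one. Of the 17 hypoxia and glycolysis genes it was the only rise and 5 fell, including Vegfa (-0.90, adjusted p = 0.00435), the oxygen sensor Egln3 (-1.81, adjusted p = 2.27e-07) and the glycolytic gene Pfkp (-1.93, adjusted p = 0.00245), while Ldha (-0.40, adjusted p = 0.134) and Gapdh (0.04) were not called. Of 17 respiratory chain genes 3 rose by at most 0.42, a share close to the 15% of all genes, and none fell.

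The remaining lists moved in both directions or held few calls. Over all tested genes 15% were called higher and 13.4% lower, and 25.4% and 15.4% without tumour 5. Of 17 chromatin and Polycomb genes 4 rose and 3 fell, with Bmi1, a Polycomb subunit, at the top (0.75, adjusted p = 0.0289) and Kdm6b, a histone demethylase, at the bottom (-0.52, adjusted p = 0.0171), and 9 rose without tumour 5. Of 10 WNT genes Sfrp1 and Lgr5 (1.39, adjusted p = 0.00349) rose, and the ligand Wnt5a (-1.83, adjusted p = 2.82e-06) and the factors Lef1 (-1.59) and Tcf7l1 (-1.35) fell, while the target Axin2 did not pass (-0.28). Of 9 YAP genes the receptor kinase Axl rose (0.97, adjusted p = 0.000764) and Wwtr1 (-0.72) and Crim1 (-0.83) fell. Of 11 cilium genes 1, the motor subunit Kif3a, fell (-0.51, adjusted p = 0.00929), and 10 were not called. Otx1 of 5 forebrain genes rose (1.61, adjusted p = 0.0143), Pax2 of 3 cerebellar territory genes fell and En2 did not pass (-0.10), and no hindbrain Hox gene was bright enough to test. Among 13 markers of human medulloblastoma subgroups 4 rose and 5 fell. The SHH markers Sfrp1, Gli1 and Hhip were among the rises, and Gabra5, Eomes and Unc5d, used for other subgroups, among the falls, although these genes also belong to normal cell types of the developing arrays.

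**Figure D5:**
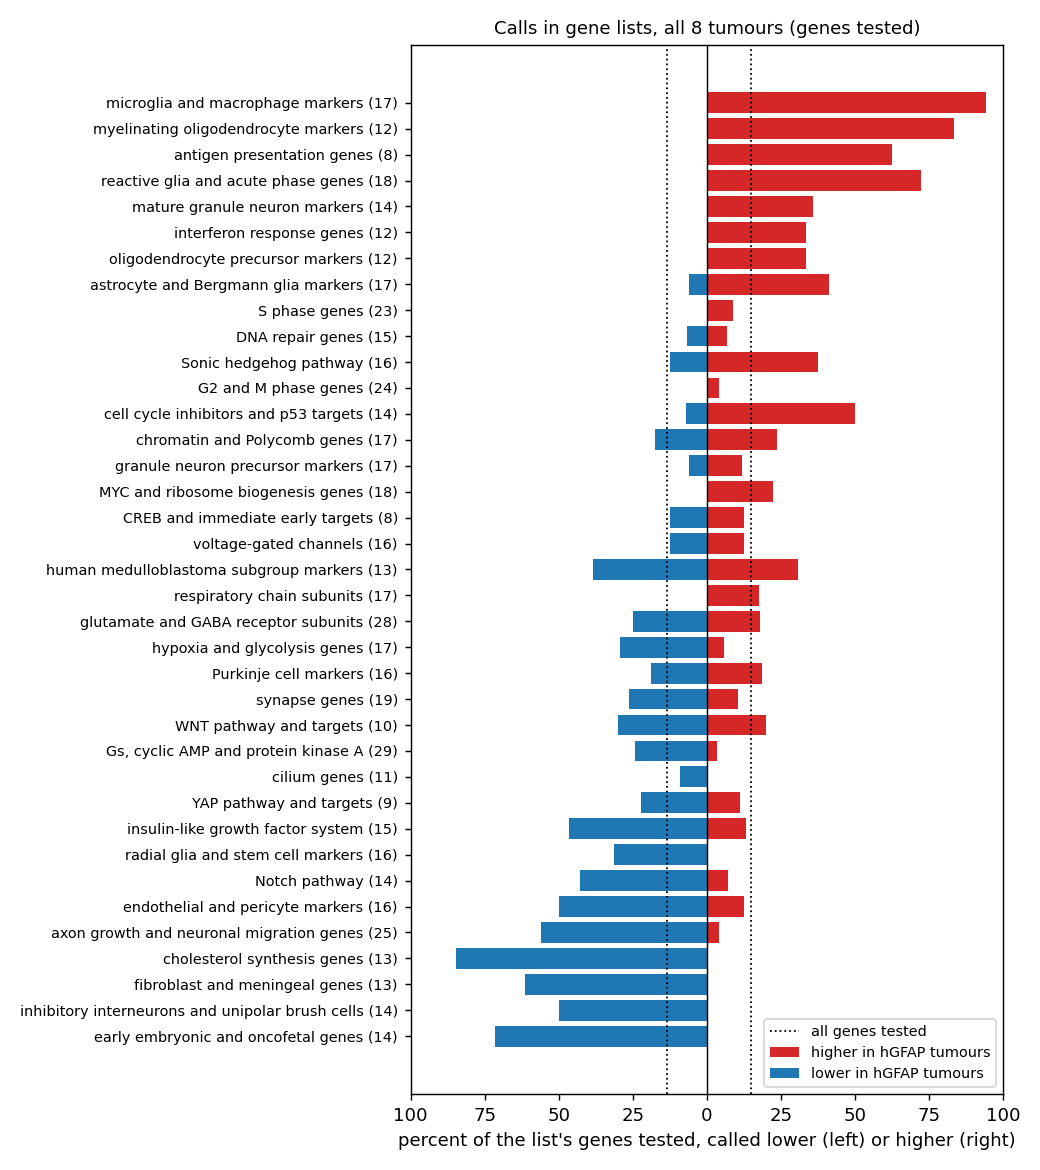
Percent of the tested genes of each list (number in brackets) called higher, to the right in red, or lower, to the left in blue, in the 8 tumours against developing cerebellum. Dotted lines mark the share of all tested genes, 15% higher and 13.4% lower, and lists with fewer than 8 tested genes are left out.

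The tumours were also placed along the developmental change. Of 386 genes that rose by at least 1 (log2) from E15 to P0, the tumour median was beyond P0 in 279 (72.3%), between the ages in 88, and short of E15 in 19, while 121 were called higher and 13 lower in the tumours than in the 3 ages. Of 73 genes that fell as much, it was beyond P0 in 56 (76.7%), between in 12 and above E15 in 5, while 45 were called lower and 2 higher. The genes were picked by the E15 and P0 arrays that also entered the calls, which by itself favours calls along the trend. Over all tested genes 15% were called higher and 13.4% lower. How often the tumour median lies beyond P0 over all genes was not counted. With 1 array per age these trends carry no error of their own, and the tumour medians were not tested against P0 here.

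Few genes were outside every normal array, developing and adult, in all 8 tumours. Among called genes 91 (0.83%) lay above and 235 (2.14%) below all 8 normal arrays, and without tumour 5 these were 734 and 472. The widest gaps above, beside Lcn2, Gpnmb, Serpina3n, Gfap and C4b, were of Cxcl10, an interferon-induced chemokine, at 6.82 to 9.66 in tumours and at most 5.83 in normal arrays (2.72, SE 0.55, adjusted p = 0.000604), of Tgm1, a transglutaminase gene (2.06, SE 0.33), and of Tagap, a gene of activated immune cells (1.37, SE 0.27). The calls of Cxcl10 (adjusted p = 0.083) and Tagap (0.102) ended with strain as a covariate, and that of Cxcl10 also against P0 alone (0.112). Below, the widest gaps beside Eomes, Tfap2a, Tfap2b and Dclk1 were of Osr1, a zinc finger gene (-2.73, SE 0.28, adjusted p = 1.37e-07), Spock3, a brain proteoglycan gene (-2.61, SE 0.64, adjusted p = 0.00343), the protease inhibitor gene Spint2 (-2.27, SE 0.41, adjusted p = 0.000202) and the protocadherin Pcdhga2, which rests on 1 probe set (-1.75, SE 0.30, adjusted p = 0.000137). With strain as a covariate the calls of Spock3 (0.15), Spint2 (0.128) and Pcdhga2 (0.0732) ended, and against P0 alone those of Spock3 (0.14) and Pcdhga2 (0.092).

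Calls over all genes were also counted against P0 alone and with a strain term, both of which include tumour 5 and estimate a difference less precisely. The difference of Gnas, for example, was -1.77 in the main fit, -1.71 against P0 alone and -1.79 with strain. Lost calls therefore need not mean smaller differences, and their number does not measure how much rests on age or strain. Against P0 alone, a lone array assumed to vary like the other groups, 580 genes were called, 192 higher (1.75%) and 388 lower (3.54%), and 576 of them were also called in the same direction against the 3 ages. With strain as a covariate, which only the adult arrays inform, 773 were called, 260 higher (2.37%) and 513 lower (4.68%), of which 742 were shared. With strain, 6 of 17 microglia markers were called higher, 5 of 18 reactive glia genes, 1 of 12 myelin markers and 1 of 16 SHH pathway genes, where 1 was also called lower, and 5 of 14 oncofetal genes were called lower. In the S phase and G2 and M phase lists none was called with strain.

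The same named genes were then set against the Oligo1:GnasCKO tumours, in which 2074 of all genes (18.9%) were called, 10.4% higher and 8.55% lower in the hGFAP tumours. Of the 36 named genes 7 differed. Gabra6 (2.67 higher, SE 0.81, adjusted p = 0.0312), Cbln3 (2.44, SE 0.77, adjusted p = 0.036) and Gfap (0.96, SE 0.31, adjusted p = 0.0382) were among them, while Gnas did not pass (0.34, SE 0.26, adjusted p = 0.326). In a limma fit of the 16 tumours alone 0 of the 36 were called, 13 had an unadjusted p under 0.05, and 222 of all genes were called.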

How the data were processed

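RNA of 24 cerebellar samples was measured on gene arrays, and the deposited values are log2 intensities after RMA with oligo 1.14 in R 2.15, per the submitters' processing notes, which shares one distribution over all arrays. Of 241576 probe sets, 213361 carried 1 gene symbol, 5107 several and 23108 none in the platform annotation, which is dated, and 2354 symbols were updated through RefSeq synonyms (GRCm38.p6). Probe sets of a gene were combined by median polish into 20848 genes (2636 on 1 probe set), and 10963 genes with at least 3 arrays above the table median of 7.61 were kept. Groups followed the labels. One limma model (3.58.1, R 4.3.3) over all 24 arrays and 4 groups gave the contrast of hGFAP tumours minus developing cerebellum, with Benjamini-Hochberg adjustment over all kept genes, and recovery was checked on simulated arrays in which 200 genes were shifted. Where the labels do not tie samples to separate animals, p-values measure the spread between samples. Genes named are Gnas, the 12 largest rises and falls without overlap, the 8 widest gaps to all normal arrays in each direction, and in each list its largest and central members, without predicted genes, small RNAs and receptor families. The samples compared and the 45 gene lists were chosen with earlier results of these data known. Promoters came from the RefSeq table of GRCm38.p6. Figures were drawn with matplotlib 3.10.9. Alternatives were other probe set summaries, filters and normalizations, strain, P0 alone, either set of 4 tumours, and each array left out.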

Additional observations from a re-analysis of the deposited data

Results flagged for a closer look

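In the 8 hGFAP tumours a value was singled out where its gap to the next exceeded 0.526 of the group's range, which chance gives in about 1 in 20 groups. Tumour 5 was singled out for 7 of the 36 named genes. It was the lowest for Lcn2 (10.01, next 11.25), Gpnmb (8.25, next 10.86), Lyz2 (7.59, next 11.52), Spp1 (8.51, next 10.07), C4b (7.26, next 8.94) and Wfdc17 (6.39, next 9.04), and the highest for the cadherin gene Cdh9 (6.49, next 4.74). These genes without tumour 5 kept their calls. How often tumour 5 was singled out over all tested genes was not counted. Its array differed more broadly, with a median of 8.468 over the tested genes, against 8.777 to 8.885 in the other hGFAP tumours. H19 was high in tumour 7 (9.95, next 7.10).

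The difference from developing cerebellum also differed between hGFAP and Oligo1 tumours for 7 of 35 named genes other than Gnas, by limma's test of hGFAP minus Oligo1 in the same model. The values were 2.67 for Gabra6 (adjusted p = 0.0312), 0.96 for Gfap (0.0382), 2.44 for Cbln3 (0.036), -2.81 for H2ab3 (0.0396), 0.83 for Tgm1 (0.0282), 0.99 for Tfap2a (0.0244) and 0.86 for Pcdhga2 (0.0206), against 18.9% of all genes called in that contrast.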

How the results depend on the processing

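Of the 36 named genes, 16 lost their call in at least 1 of 25 alternatives. None changed direction in any alternative that gave it a value, with 2 to 3 genes missing from the mean of probe sets and the stricter filter. For each of them the tumour and developing arrays did not overlap in the main fit. Leaving out arrays therefore could not change a direction, and those alternatives do not test it. With strain as a covariate the calls fell from 3107 to 773 (higher 260, lower 513), and Gnas was -1.79 and no longer called. Against P0 alone they were 580 (higher 192, lower 388), with Gnas at -1.71. Leaving out each hGFAP and developing array in turn (no adult or Oligo1 array was left out) gave 1957 to 4470 calls, 955 to 2784 higher and 1002 to 1686 lower, and Gnas from -1.94 to -1.66, the lowest counts without E15 and the highest without tumour 5. Tumours 1 to 4 alone gave 2572 higher, tumours 5 to 8 alone 1089, and the table without a filter 2343 lower. Genes outside all normal arrays went from 91 to 734 above and from 235 to 472 below without tumour 5. The mean correlation with E15, E18, P0 and adult was 0.736, 0.778, 0.813 and 0.739, without a filter 0.927, 0.940, 0.950 and 0.935, and with a filter at 8.31 it was 0.688, 0.738, 0.776 and 0.675, where adult lies below E15 and not above it. The cause of these shifts was not tested, apart from the fewer arrays or other genes each uses.

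No paired analysis was possible for the comparison with developing cerebellum because those arrays carry no replicate numbers. Tumours of both genotypes share numbers, but the correlation of deviations was from -0.496 to 0.590, above 0.1 for 4 of 8 numbers, and 1 tumour was closest to its own number. Named genes called between hGFAP and Oligo1 tumours went from 7 to 1 with the replicate block in a fit of the 16 tumours, to 0 in that fit without the block (added after seeing the data, 13 at an unadjusted p under 0.05), and to 5 without hGFAP tumour 5. Few arrays, 1 per developing age, and the compression of dim signals limit what can be seen.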

Other observations

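Tumours 2 and 4 were left out together as an alternative chosen after seeing that Ttr was high in them. The counts of microglia markers (16 of 17 higher), reactive glia genes (13 of 18), myelin markers (10 of 12) and cholesterol genes (11 of 13 lower) were the same without them, the oncofetal list had 9 falls instead of 10, and the SHH pathway had 4 rises instead of 6. The median of the choroid plexus list was -0.92 without these tumours and -0.61 with them.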
